A study of Mus musculus with 48 samples.

Results

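Of the 55681 probes on the arrays, 16181 (29.1%) carry no gene name and are named instead by a stretch of the mouse genome (build mm9) and a strand, F for forward and R for reverse. These probes for unnamed intergenic transcripts were taken by that form of name alone, with no use of the signal, and they fall in 3540 regions that together hold 4607 region strands. Both strands were probed in 1067 regions and 1 strand in 2473. The other probes comprise 31381 matched to a gene symbol and 8119 with neither such coordinates nor a matched symbol. Regions less than 10 kb apart, joined on any strand, form 1965 loci on 20 chromosomes, with none on the Y chromosome. A region is typically short against a gene, with a median length of 7315.5 bases, and region strands most often carry 3 probes (1809 of them), with 690 carrying 1 probe and at most 10. All 16063 probes whose own position is given lie inside the region they are named for and on its strand, and 118 have no position. The word intergenic does not hold for every region: 3545 probes (21.9%) lie in a region that also contains a probe with a gene symbol, 7795 (48.2%) lie within 10 kb of such a probe, and 12708 (78.5%) within 50 kb.

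Long intergenic RNAs are transcribed from DNA between annotated protein-coding genes, often spliced and polyadenylated like messenger RNAs, and are on the whole less abundant and more restricted to particular cell types than messenger RNAs. Some act on chromatin or on neighbouring genes, others are by-products of enhancer or promoter activity or unannotated ends of known transcripts, and for most no function is known. In glia, a few such RNAs are known to be induced by inflammatory signals or to accompany the maturation of oligodendrocytes, the cells that wrap axons in myelin.

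Male swiss mouse pups were injected intraperitoneally with IL1B (10 ng/g), a pro-inflammatory cytokine, or with PBS, the vehicle, from postnatal day 1 (P1) to P5, a treatment used to model the systemic inflammation of preterm infants. Brains were taken 2 h after the last injection at P5, or at P10, and O4+ cells (late oligodendrocyte precursors and immature oligodendrocytes) and then CD11B+ cells (microglia) were isolated by magnetic sorting. Cell type, age and treatment give 8 groups of 6 arrays each, 48 in all: O4+ or CD11B+ cells, at P5 or P10, after PBS or IL1B. One description field of the P10 samples reads P5 with injections up to P10, against their titles, stage field and treatment protocol, which were followed here. Brains were pooled for each sample, no group was left uninjected, and O4+ and CD11B+ fractions came in sequence from one dissociation. The p-values below measure the spread between these samples. In sorted bulk samples, fewer cells of a type and less RNA per cell cannot be told apart, for the cells sorted for or for any others among them. Markers of each cell type were measured in both sorted fractions: all 15 microglial marker genes examined were well above background on every O4+ array, and all 11 oligodendrocyte lineage markers on every CD11B+ array. The mean log2 signal of the microglial markers was 12.53 to 14.81 on O4+ arrays and 15.96 to 16.65 on CD11B+ arrays, and that of the lineage markers 14.38 to 15.67 and 9.59 to 11.88. Where the signal of the other cell type's markers came from was not tested. Age and array batch cannot be told apart, since no slide or scan day held arrays of both ages. On a single array of the CD11B+ P5 PBS group, replicate 5, the mean log2 signal of 6 astrocyte markers was 11.24 against 8.69 to 9.73 on the other 5 arrays. On replicate 6 of the CD11B+ P10 PBS group, that of 7 neutrophil and monocyte markers was 12.94 against 10.36 to 10.88.

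Each probe is 60 bases long and reads 1 strand. In 98 cases in 82 regions, the array carries the same 60 bases on both strands, so that the pair of probes asks which strand was transcribed at the very same place. The 4 sequences that follow are 2 such pairs, shown because their strands had opposite cell type bias at both ages; they were chosen after their values were seen. Capitals mark the start of the forward probe and the bases of the reverse probe that pair with it. The forward and reverse probes lie at chr13:112727917-112727976 and at chr2:35833652-35833711 (mm9), and are written 5′ to 3′.
chr13:112717680-112733330_F: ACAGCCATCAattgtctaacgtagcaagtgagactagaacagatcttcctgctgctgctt
chr13:112717680-112733330_R: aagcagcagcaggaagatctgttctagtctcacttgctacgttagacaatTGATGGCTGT
chr2:35828611-35838083_F: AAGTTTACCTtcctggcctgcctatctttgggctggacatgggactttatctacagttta
chr2:35828611-35838083_R: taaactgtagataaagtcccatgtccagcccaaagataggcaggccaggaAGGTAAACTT

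The next 11 probes belong to regions with large changes in the comparisons described further on, and are shown so that each can be found in the genome (mm9; F, forward strand; R, reverse strand). They are written 5′ to 3′ in lower case, and capitals mark a match to AATAAA, the canonical polyadenylation signal.
chr13:15947521-15999246_F: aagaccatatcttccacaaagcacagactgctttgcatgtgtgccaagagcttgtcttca
chr6:40699474-40719122_F: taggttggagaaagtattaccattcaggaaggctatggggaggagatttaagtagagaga
chr6:31007184-31007725_R: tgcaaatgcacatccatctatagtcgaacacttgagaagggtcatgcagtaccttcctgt
chr17:71183978-71185384_F: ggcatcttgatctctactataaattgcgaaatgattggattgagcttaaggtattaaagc
chr15:36800254-36809571_R: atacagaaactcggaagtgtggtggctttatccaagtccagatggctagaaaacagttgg
chr5:53751894-53763013_R: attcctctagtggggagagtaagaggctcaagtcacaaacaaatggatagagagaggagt
chr17:71242333-71273533_F: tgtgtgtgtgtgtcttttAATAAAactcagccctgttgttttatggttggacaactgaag
chr8:91471819-91551119_R: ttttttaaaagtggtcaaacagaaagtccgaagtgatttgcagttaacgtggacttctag
chr9:122481619-122588714_F: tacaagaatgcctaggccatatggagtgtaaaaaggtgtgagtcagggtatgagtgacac
chr9:65376063-65390480_R: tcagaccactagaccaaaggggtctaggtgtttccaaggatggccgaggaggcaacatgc
chr2:36112819-36114110_F: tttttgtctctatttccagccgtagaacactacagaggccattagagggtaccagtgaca
Among the 11, AATAAA occurred in the chr17:71242333-71273533 probe alone. Over all the unnamed intergenic probes, AATAAA was found on the probe's own strand in 634 (3.92%), and on the other strand in 3.02%. The same letters were found on the own strand of 13.4% of the probes with a gene symbol and of 10.1% of all 60-base probes on the array. The intergenic probes had a median GC content of 45% and the probes with a symbol 41.7%.

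Unnamed intergenic transcripts were detected less often than genes with a symbol, and a minority of them in every group. A probe was counted as detected in a group where the scanner software marked it as well above background on all 6 arrays. In O4+ cells, 5459 probes (33.7%) were detected after PBS and 6338 (39.2%) after IL1B at P5, and 5430 (33.6%) and 5863 (36.2%) at P10. In CD11B+ cells, 4834 (29.9%) and 5256 (32.5%) were detected at P5, and 5322 (32.9%) and 4935 (30.5%) at P10. Probes with a gene symbol were detected at 63.3% to 70.6% in the same groups. Per array, the share of the intergenic probes well above background was lowest at 35.4%, with a median of 41.9% and a highest value of 46.2%, in the O4+ P5 PBS group, and 42.2%, 46.6% and 49.7% in the O4+ P5 IL1B group. These 2 groups overlapped, as did PBS and IL1B in each other pair of groups. A core of 3752 probes (23.2%) was well above background on all 48 arrays, and 4279 (26.4%) on none, against 57.4% and 13.4% of the probes with a symbol. Detection confined to one cell type was rare: 0.661% of the probes were well above background on all 24 O4+ arrays and no CD11B+ array, and 24 (0.148%) on all 24 CD11B+ arrays and no O4+ array. It was about as rare among the probes with a symbol, at 0.742% and 0.0956%.

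**Figure D1:**
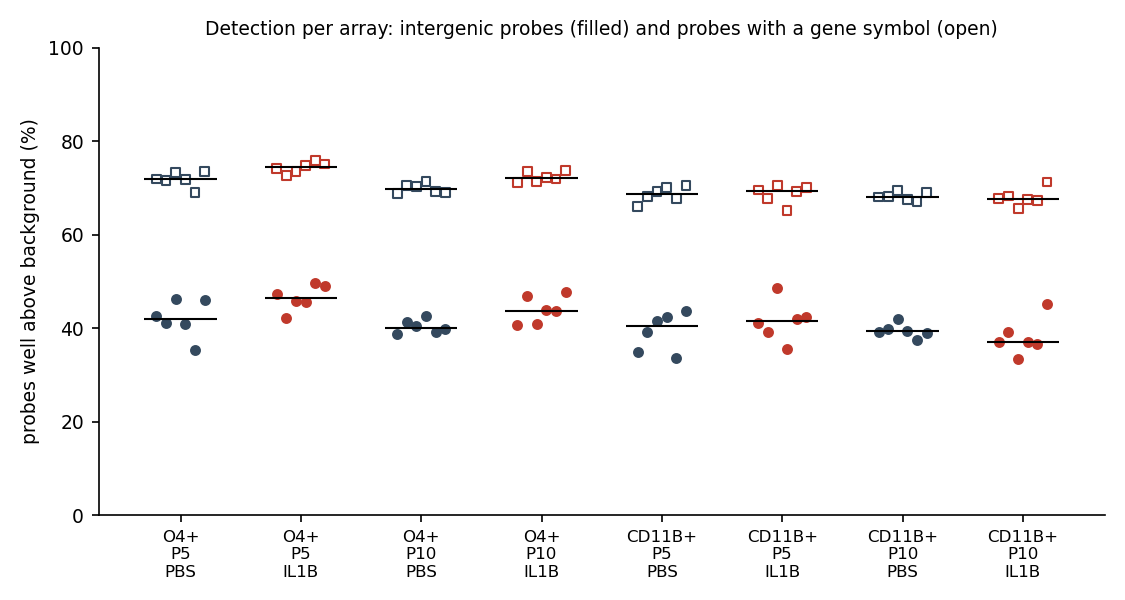
Percent of probes well above background (vertical axis) on each of the 48 arrays, by group of 6 arrays (horizontal axis), for the unnamed intergenic probes (filled) and for the probes with a gene symbol (open), with a line at each group's median. Intergenic probes lie between 33.4% and 49.7% on every array, and probes with a symbol all lie above them.

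Detection varied with probe composition and place. Among intergenic probes with over 50% GC, 44.6% to 54.9% were detected per group, and among those with 35% or less, 24.4% to 34.7%. Probes within 1 kb of a probe with a gene symbol were detected in 33.9% to 44.7%, and those over 50 kb from any in 24.1% to 32.3%. Along a region strand, the probe nearest the 5′ end and that nearest the 3′ end were detected alike, in 33.0% and 34.2% of 3361 region strands in the O4+ P5 PBS group. Probes of a strand often disagreed. Of the 3917 region strands with 2 or more probes, no probe was detected in 35.4% to 46.6% per group, some but not all in 40.3% to 45.5%, and every probe in 13.1% to 19.7%. Probes of a region are therefore described singly below, with the number of its probes that moved alike, and the level of a probe is not set against that of another.

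Where both strands of a region were probed, detection on both strands was about as frequent as detection on 1. Of the 1067 such regions, 426 had a detected probe on both strands in the O4+ P5 PBS group, 442 on 1 strand and 199 on neither. After IL1B at P5 the counts in O4+ cells were 511, 410 and 146, and in CD11B+ cells 379, 456 and 232 after PBS against 449, 448 and 170 after IL1B. At P10 the regions with both strands detected numbered 428 and 484 in O4+ cells and 444 and 401 in CD11B+ cells after PBS and IL1B. The region counts rest on unlike positions of the strands' probes, which the 98 mirrored pairs do not. Of these pairs, 8 to 15 per group had both probes detected, 34 to 42 had 1, and 43 to 54 had none.

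The mirrored pair at chr13:112717680-112733330 showed the strands moving apart between cell types. On the forward strand, the log2 signal of the 6 CD11B+ arrays after PBS at P10 was 4.44 at the lowest, 4.88 at the median and 5.34 at the highest, against 3.12, 3.57 and 3.85 in O4+ cells, where no array was well above background. On the reverse strand it was 5.15, 5.40 and 6.28 in CD11B+ cells against 6.81, 7.04 and 7.20 in O4+ cells. Neither strand's groups overlapped, and the direction was opposite: the reverse strand was higher in O4+ cells by 1.51 ± 0.17 (log2 difference ± SE, n = 6 against 6; adjusted p = 7.47e-06, limma), and the forward strand was called higher in CD11B+ cells (adjusted p = 2.67e-05, limma). At P5 the forward strand's groups overlapped (3.36, 5.20 and 5.51 in CD11B+ cells against 2.97, 3.63 and 4.10 in O4+ cells; adjusted p = 0.00611, limma), and the reverse strand was higher in O4+ cells by 2.98 ± 0.19 (adjusted p = 3.13e-08, limma). The pair at chr2:35828611-35838083 had the same opposition. At P10, the forward probe's log2 signal was 5.55, 5.90 and 6.24 in CD11B+ cells and 3.03, 4.04 and 4.51 in O4+ cells, and the reverse probe's was 5.46, 5.87 and 5.92 against 6.55, 6.90 and 7.66, again without overlap. The reverse strand was higher in O4+ cells by 1.05 ± 0.06 at P5 and 1.17 ± 0.16 at P10, and the forward strand lower by -1.10 ± 0.17 and -1.99 ± 0.27 (largest adjusted p = 0.000108, limma).

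Groups were then compared in 8 ways. A probe was called where limma's p, adjusted over all 55681 probes by the Benjamini-Hochberg method, was under 0.05 and the ratio of the group medians was above 1.5 either way. Signals are given as log2 normalised intensity, in the order lowest, median and highest of 6 arrays, and fold changes are ratios of medians. Signs within a slide, where given, come from arrays that also made the calls. O4+ and CD11B+ arrays were normalised apart for the effects of IL1B and of age, and together for the comparison of cell types. Where a group was well above background on none of its arrays, its level is only bounded, and the fold is given as at least the ratio to the detection limit. With normexp background correction fewer intergenic probes were called in each comparison, 74 to 462 for IL1B or age and 2310 and 2413 for cell type. The median log2 difference over the intergenic probes lay between -0.09 and 0.06 in the 8 comparisons, and over all probes between -0.05 and 0.02. Among probes detected in at least 1 of the groups compared, intergenic probes were called in 4.86% for IL1B in O4+ cells at P5 and 10.6% in CD11B+ cells at P5, against 7.91% and 16.7% of the probes with a symbol. For age they were called in 23.5% of detected probes in O4+ cells and 15.3% in CD11B+ cells, against 26.4% and 12.6%, and for cell type in 65.0% at P5 and 60.2% at P10, against 61.1% and 64.5%.

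**Figure D2:**
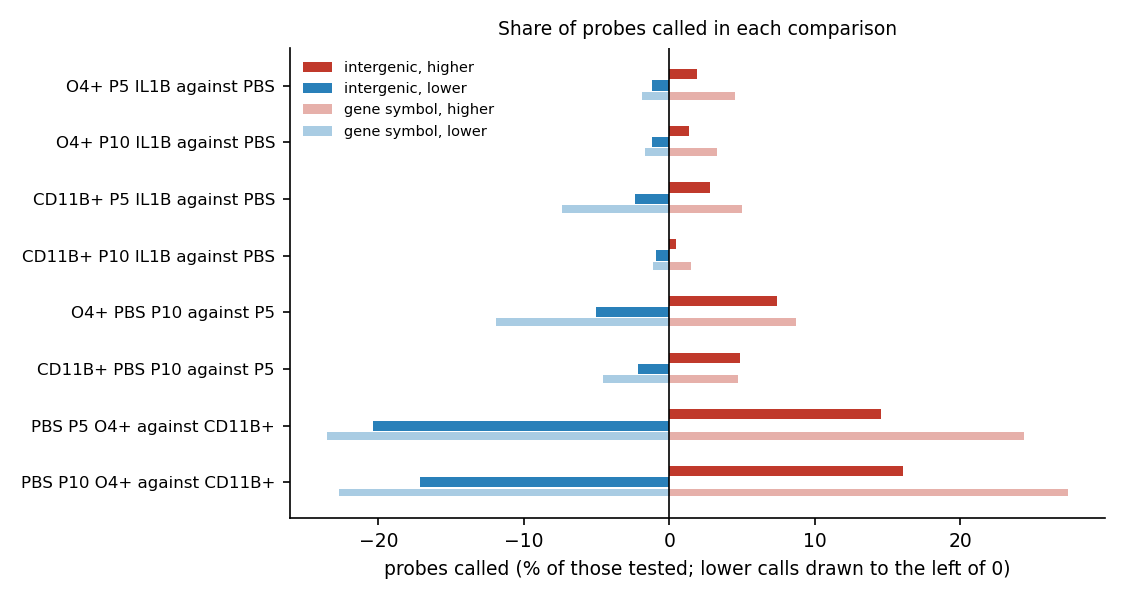
Percent of probes called (horizontal axis) in each of the 8 comparisons, higher to the right of 0 and lower to the left, for the 16181 unnamed intergenic probes (dark bars) and the probes with a gene symbol (pale bars). Between cell types 14.5% to 20.4% of the intergenic probes were called per direction, and for IL1B 0.482% to 2.83%.

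The comparisons between cell types had the most calls. In PBS pups at P5, 2351 probes (14.5%) were higher in O4+ than in CD11B+ cells, against 19.8% of all probes, and 3299 (20.4%) were lower, against 21.8%. The higher calls made up 41.6% of the calls, and 30.6% with the matrix of processed values. At P10, 2597 (16.05%) were higher in O4+ cells, against 22.2% of all probes, and 2773 (17.1%) were lower, against 20.2%. The 2 ages share no arrays. Of the probes higher in O4+ cells, 1805 were so at both ages, 76.8% of the P5 calls and 69.5% of the P10 calls, and of those higher in CD11B+ cells 2095 were, 63.5% and 75.5%. Only 12 and 22 were called in opposite directions. Across the 16181 probes, the O4+ minus CD11B+ differences at the 2 ages had Pearson's r = 0.852 and Spearman's rho = 0.688, a description over probes, which share arrays within an age and are not independent replicates. On the P5 slide that held both cell types, with 1 CD11B+ and 2 O4+ arrays, 99.2% of the called probes had the same sign. Among the P10 PBS arrays, no slide held both cell types, though 1 of 2 scan days did. Cell type and slide therefore cannot be told apart at P10.

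In O4+ cells, the transcript of chr9:122481619-122588714_F was among the most cell type-restricted at both ages. Its log2 signal at P10 was 8.53, 8.76 and 8.92 in O4+ cells and 1.57, 2.62 and 4.76 in CD11B+ cells, where 1 of 6 arrays was well above background. The groups did not overlap, the ratio of medians was 70.3 and the difference was 5.94 ± 0.43 (adjusted p = 1.17e-07, limma). At P5 it was 6.93, 7.03 and 7.70 against 1.46, 1.60 and 6.47, where the value of 6.47 came from replicate 5, the array with the raised astrocyte markers, and the difference was 4.66 ± 0.77 (adjusted p = 0.00020, limma). The part of those cells in this value was not tested. All 3 probes of the strand were called at each age, and the region contains 9530059O14Rik, a RIKEN transcript that was higher in O4+ cells by 7.95 at P5 and 5.49 at P10.

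Several of the strongest O4+ transcripts stood beside Ugt8a, the enzyme that makes galactocerebroside, a lipid of myelin. The probe of chr3:125563727-125564266_F, 4758 bases from a Ugt8a probe and on the other strand, had a log2 signal of 7.37, 7.59 and 7.88 in O4+ cells at P10 and 1.47, 1.48 and 2.71 in CD11B+ cells, at least 12.3-fold higher (adjusted p = 6.79e-10, limma). That of chr3:125556577-125557102_R, on the strand of Ugt8a, was 7.77, 7.86 and 8.10 at P5 against 1.57, 1.63 and 6.53. A single CD11B+ array, replicate 2, gave 6.53, and the difference was 5.32 ± 0.76 (adjusted p = 6.17e-05, limma). Ugt8a itself was higher in O4+ cells by 5.94 at P5. The probe of chr9:27148989-27155714_F, 5932 bases from Igsf9b, an adhesion protein of inhibitory synapses, was at least 10.9-fold higher at P10 (adjusted p = 3.83e-09, limma), with all 5 probes of the strand called. That of chr7:89433125-89464275_R, which overlaps the endophilin gene Sh3gl3 on the other strand, was at least 11.0-fold higher (adjusted p = 1.31e-09, limma), and Sh3gl3 was higher by 5.63. The transcript of chrX:102568332-102587093_R was at least 8.33-fold higher at P5 (adjusted p = 4.86e-11, limma), and the region contains 5330434G04Rik, higher by 2.36.

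In CD11B+ cells, the transcript of chr6:31007184-31007725_R had no gene symbol probe within 50 kb. Its log2 signal on a single probe at P10 was 9.02, 9.23 and 9.52 in CD11B+ cells and 1.56, 1.92 and 2.94 in O4+ cells, at least 42.0-fold higher in CD11B+ cells (adjusted p = 1.08e-10, limma). At P5 it was 8.76, 9.31 and 9.53 against 3.99, 4.14 and 4.84, a ratio of 35.9 and a difference of -4.92 ± 0.19 (adjusted p = 4.26e-10, limma). Groups were fully apart at both ages, and all 3 probes of the strand were called. Signals given for this strand further on come from another probe or normalisation, and these levels are not to be set against them. The probe of chr9:65376063-65390480_R gave 9.37, 9.57 and 10.00 in CD11B+ cells at P10 against 1.64, 2.93 and 3.53, at least 54.4-fold higher (adjusted p = 3.91e-09, limma), and lies 9120 bases from Plekho2, which was lower in O4+ cells by -4.32. On its own strand 4 of 5 probes were called the same way, and on the opposite strand 4 of 5. That of chr2:36112819-36114110_F gave 8.47, 8.65 and 8.87 against 1.73, 2.78 and 3.79, at least 27.8-fold higher (adjusted p = 4.79e-09, limma). It lies 5146 bases from Ptgs1, the constitutive cyclooxygenase of prostaglandin synthesis, on the same strand, and Ptgs1 differed by -4.92. In the cluster of interferon-inducible p200 genes on chromosome 1, the probe of chr1:175660642-175671878_R was 44.4-fold higher in CD11B+ cells at P5 (difference -5.23 ± 0.24; adjusted p = 1.76e-09, limma) and at least 13.8-fold higher at P10 (adjusted p = 4.43e-10, limma), and the region contains a probe of Ifi207.

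Of the IL1B comparisons, that of CD11B+ cells at P5 had the most calls: 458 probes (2.83%) were higher, against 4.06% of all probes, and 381 (2.35%) lower, against 5.24%. The higher probes lie in 258 regions and 222 loci, and the lower ones in 256 regions and 215 loci. Higher calls made up 54.6% of the calls, and 75.9% where arrays were scaled to their 75th percentile. With the slide as a block 250 probes were called. Only 1 of 4 slides held both groups, with 1 PBS and 4 IL1B arrays, and there 99.2% of the called probes had the same sign. IL1B and slide can therefore be told apart only in part. Markers of other cells moved in the same arrays: the mean log2 signal of 7 neutrophil and monocyte markers was 10.20 to 11.42 after PBS and 14.10 to 14.63 after IL1B, and all 7 were called higher. That of the 15 microglial markers was 16.15 to 16.26 and 15.96 to 16.17, and that of 6 endothelial markers 9.61 to 10.20 and 8.84 to 9.36, with 3 of 15 and 4 of 6 called lower. The part of these cells in the changes was not tested. Without replicate 5 of the PBS group, 755 probes were called.

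The largest rise among the named regions came from background. The probe of chr13:15947521-15999246_F had a log2 signal of 1.57, 1.59 and 1.60 in CD11B+ cells after PBS at P5 and 8.61, 8.98 and 9.38 after IL1B, so that all 6 treated arrays lay far above every control. The rise was at least 41.9-fold (adjusted p = 1.25e-10, limma). All 5 probes of the strand and all 5 of the opposite strand were called higher, by 2.10 to 7.43 and by 1.99 to 3.58, and so was B230303A05Rik, another RIKEN transcript, 42056 bases away, by 6.20. In O4+ cells at P5 the same probe differed by 1.04 ± 0.33, which was not called (adjusted p = 0.052, limma). The probe of chr6:40699474-40719122_F rose from 3.47, 4.44 and 4.90 to 8.65, 8.75 and 8.98, 19.8-fold and by 4.42 ± 0.20 (adjusted p = 1.17e-07, limma). Its region contains a probe of Mgam, a digestive disaccharidase, which rose by 3.06. The probe of chr17:56687541-56694631_R rose from 4.17, 4.70 and 5.57 to 9.05, 9.74 and 10.27, 33.0-fold and by 4.88 ± 0.27 (adjusted p = 3.56e-07, limma), but was the only 1 of 5 probes of its strand to be called. That of chr1:138579972-138587381_F rose at least 2.59-fold, from 1.76, 1.92 and 3.49 to 3.92, 5.21 and 5.55 (adjusted p = 0.000139, limma), with no gene symbol probe within 50 kb.

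Among the falls in CD11B+ cells, the transcript of chr15:36800254-36809571_R was best measured. Its probe fell from 9.07, 9.16 and 9.47 to 7.18, 7.32 and 7.73, a 3.59-fold drop (difference -1.82 ± 0.11; adjusted p = 5.19e-07, limma), and all 3 probes of the strand fell. The region contains Gm10384, a predicted gene, which differed by -0.95 and was called. The probe of chr5:137411861-137413010_F, 16374 bases from the mitochondrial fission gene Fis1, fell 2.96-fold, from 9.62, 9.79 and 9.91 to 7.70, 8.23 and 8.56 (difference -1.58 ± 0.12; adjusted p = 3.70e-06, limma). Groups were apart for both. The falls of chr8:48476637-48492537_R (4.08-fold), chr5:123440192-123451767_F (3.63-fold) and chr14:70483555-70484159_F (3.49-fold, 4304 bases from Egr3, an immediate early transcription factor) lost their calls with the slide as a block, at adjusted p = 0.16, 0.12 and 0.28 by limma, while the log2 differences went from -2.06 to -1.92, from -1.84 to -1.65 and from -1.76 to -1.80.

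In O4+ cells at P5, IL1B raised 304 probes (1.88%), against 3.44% of all probes, and lowered 191 (1.18%), against 1.49%. The higher probes lie in 197 regions and 161 loci and the lower ones in 143 regions and 125 loci. Higher calls were 61.4% of the calls, 71.7% where arrays were scaled to their 75th percentile and 48.5% from the matrix of processed values, and 234 probes were called with the slide as a block. Of 3 slides, 2 held both groups, with 4 PBS and 1 IL1B arrays and with 2 and 1. On these, 99.2% and 98.8% of the called probes had the same sign. IL1B and slide can be told apart only in part here. Of the higher probes, 103 were well above background on no PBS array. Where a region strand had several probes and at least 1 was called higher, 57 of 189 (30.2%) had 2 or more called. In the same O4+ arrays the mean log2 signal of the 15 microglial markers was 13.30 to 13.86 after PBS and 14.42 to 14.81 after IL1B, with 10 of 15 called higher, and that of the 7 neutrophil and monocyte markers 3.89 to 4.71 and 7.16 to 10.57, with 7 of 7 called higher. Among the latter, Ngp, Ltf and Ccr2 were well above background on no PBS array. That of 6 endothelial markers was 10.50 to 11.46 after PBS and 10.02 to 10.51 after IL1B, with 4 of 6 called lower. The part of these cells in the changes was not tested.

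The probe of chr18:38478632-38482159_F rose in both cell types at P5 and not at P10. In O4+ cells its log2 signal was 1.68, 1.97 and 2.87 after PBS and 4.86, 5.50 and 6.28 after IL1B, at least 3.61-fold higher (adjusted p = 7.28e-06, limma). In CD11B+ cells it was 1.72, 2.14 and 2.93 against 5.12, 6.09 and 6.18, at least 4.76-fold higher (adjusted p = 1.36e-06, limma), and the groups were apart in both. At P10 it was not called in either cell type (difference -0.15 ± 0.10 in O4+ cells and 0.18 ± 0.51 in CD11B+ cells; adjusted p = 0.41 and 0.87, limma). It lies 1272 bases from a probe of Rnf14, a ubiquitin ligase gene on the same strand, which was not called. The transcript of chr6:31007184-31007725_R, the same that was higher in CD11B+ cells, rose in O4+ cells at P5 from 5.96, 6.29 and 6.85 to 8.02, 8.35 and 8.63 on the probe printed above, 4.15-fold and by 1.94 ± 0.17 (adjusted p = 1.87e-05, limma), with 3 of 3 probes called. In CD11B+ cells the same probe differed by 0.47 ± 0.14, too little in ratio to be called, 1.52 ± 0.22 less than the O4+ response, a description, since the region was chosen for its O4+ response. The probe of chr17:71183978-71185384_F rose from 5.68, 6.05 and 6.44 to 7.58, 7.91 and 8.25, 3.61-fold and by 1.79 ± 0.15 (adjusted p = 1.35e-05, limma), with 3 of 3 probes called. It lies 8274 bases from a probe of Tgif1, a homeobox repressor of TGF-beta signalling, on the other strand, which rose by 1.46. In the p200 gene cluster, the probe of chr1:175653557-175671940_R rose from 6.43, 6.82 and 7.88 to 8.42, 8.96 and 9.54, 4.42-fold and by 1.87 ± 0.30 (adjusted p = 0.00152, limma), and the Ifi207 probe inside that region by 1.84.

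The falls in O4+ cells at P5 were smaller. The probe of chr15:36800254-36809571_R, which also fell in CD11B+ cells, went from 5.26, 5.91 and 6.07 to 4.22, 4.73 and 5.06, a 2.27-fold drop (difference -1.12 ± 0.18; adjusted p = 0.00132, limma). The O4+ minus CD11B+ difference of the responses was 0.67 ± 0.21, a description, since the region was named for these responses. Beside Mecom, a zinc finger transcription factor gene that fell by 1.37 on the log2 scale, the probe of chr3:30099759-30133959_R fell 2.85-fold (difference -1.58 ± 0.24; adjusted p = 0.00110, limma), with 4 of 5 probes called, although the call was lost with the slide as a block (difference -1.26; adjusted p = 0.050). The probe of chr2:174852887-174853961_F fell 2.05-fold from 5.53, 5.92 and 6.06 to 4.34, 4.88 and 5.52, with 3 of 3 probes called.

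**Figure D3:**
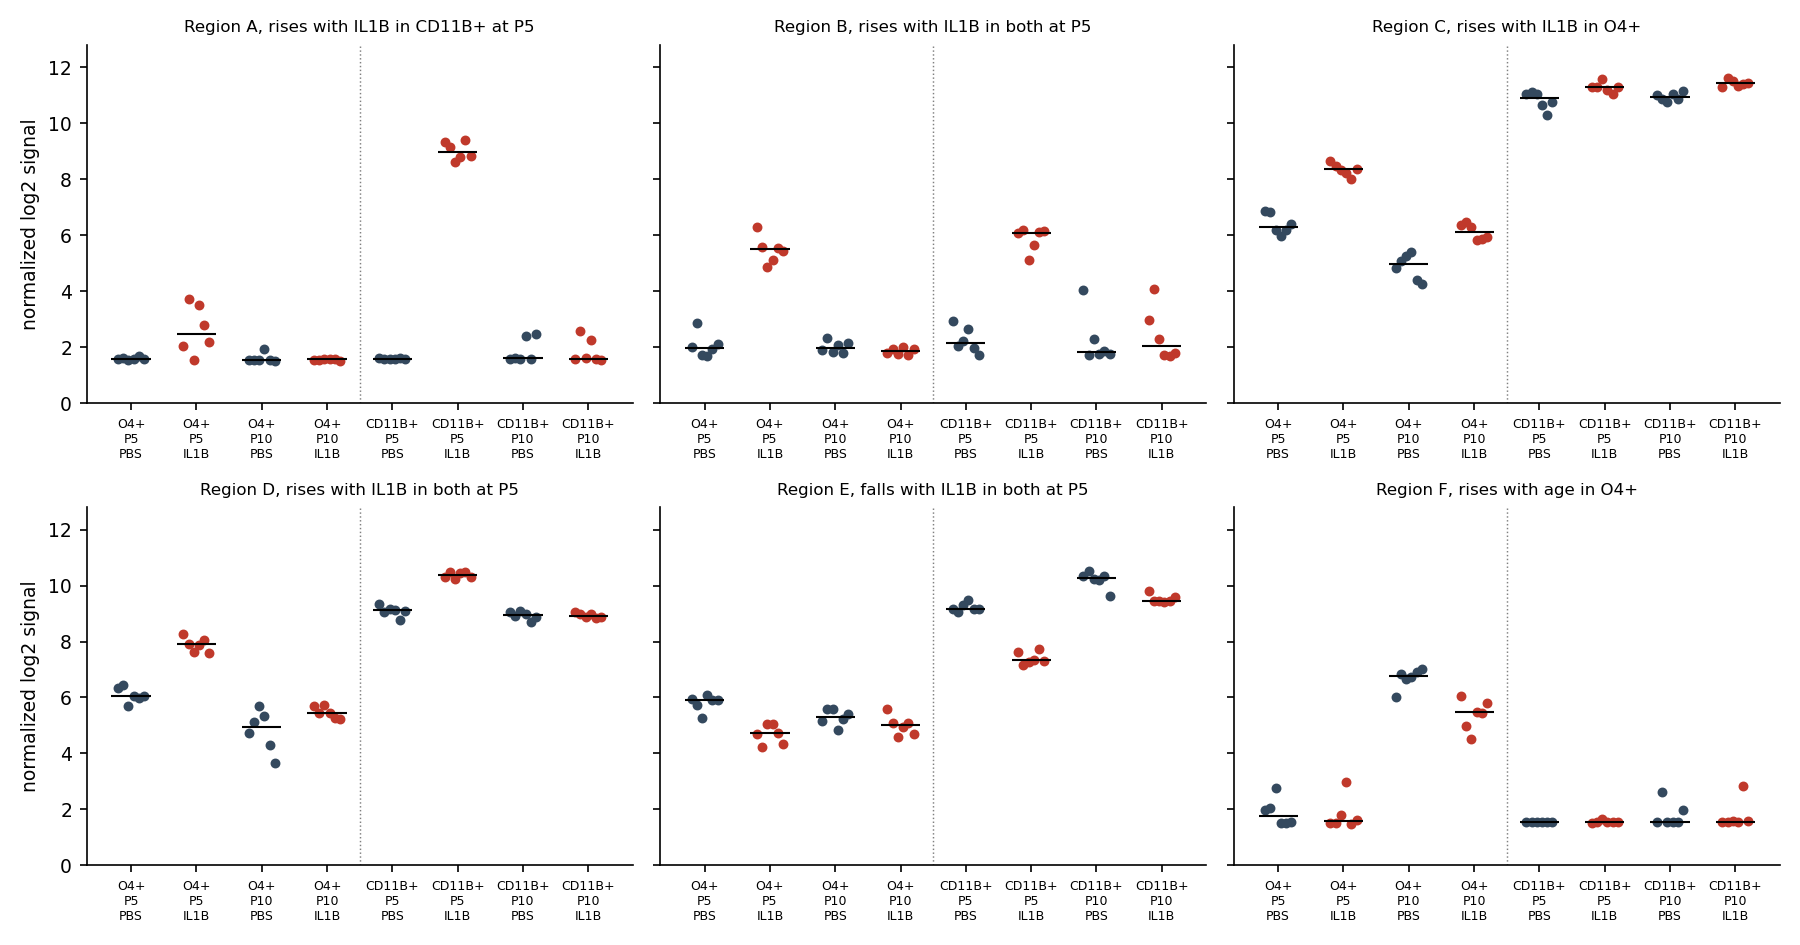
Log2 normalised signal of 6 named probes (vertical axis) in the 8 groups of 6 arrays (horizontal axis), each point 1 array and each line the median of a group, with IL1B in red. The panels show chr13:15947521-15999246_F (A), chr18:38478632-38482159_F (B), chr6:31007184-31007725_R (C), chr17:71183978-71185384_F (D), chr15:36800254-36809571_R (E) and chr5:53751894-53763013_R (F). O4+ and CD11B+ arrays were normalised apart here, and panel A reaches 9.38 in CD11B+ cells after IL1B at P5.

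The responses of the cell types at P5 share no arrays, although O4+ and CD11B+ fractions came from the same brains. Of the probes that rose in O4+ cells, 114 also rose in CD11B+ cells, 37.5% of the O4+ list and 24.9% of the CD11B+ list. Of those that fell, 26 did in both, 13.6% and 6.82%, and 0 probes were called in opposite directions. Across the 16181 probes the 2 responses had Pearson's r = 0.327 and Spearman's rho = 0.285, a description over probes. The cell type bias of the responding probes was read from the P10 PBS arrays, which neither response used. Of the 304 probes that rose in O4+ cells at P5, 238 (78.3%) were higher in CD11B+ than in O4+ cells at P10 and 11 (3.62%) were higher in O4+ cells. Over all the intergenic probes these shares were 17.1% and 16.05%, and over all probes 20.2% and 22.2%. Of the 191 that fell, 95 (49.7%) were higher in O4+ cells and 27 (14.1%) in CD11B+ cells. Of the 458 that rose in CD11B+ cells, 253 (55.2%) were higher in CD11B+ cells and 40 (8.73%) in O4+ cells. Of the 381 that fell there, 178 (46.7%) were higher in O4+ cells and 129 (33.9%) in CD11B+ cells.

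At P10, days after the last injection, 221 probes (1.37%) were higher in O4+ cells that had received IL1B, against 2.49% of all probes, and 188 (1.16%) were lower, against 1.42%. Higher calls made up 54.0% of the calls, 31.1% where arrays were scaled to their 75th percentile and 40.8% from the matrix of processed values, so that the balance of directions depended on the scaling. Of 3 slides, 2 held both groups, with 5 PBS and 2 IL1B arrays and with 1 and 1. On these, 100% and 97.6% of the called probes had the same sign. Of the P5 rises in O4+ cells, 28 were called higher again at P10, 9.21% of the P5 list and 12.7% of the P10 list, and 9 of the falls were called lower again. Called the opposite way at P10 were 1 of the P5 rises and 5 of the P5 falls. Against the P5 PBS arrays, which this response did not use, 122 (55.2%) of the 221 probes were higher in O4+ cells and 62 (28.1%) in CD11B+ cells, against 14.5% and 20.4% of all the intergenic probes, while of the 188 that were lower, 47 (25.0%) and 42 (22.3%) were. The mean log2 signal of the microglial markers was 12.53 to 13.17 after PBS and 12.88 to 13.49 after IL1B in these arrays, with 7 of 15 called higher, and that of the neutrophil and monocyte markers 3.09 to 4.61 and 4.95 to 6.48, with 5 of 7 called higher. That of 6 astrocyte markers was 10.06 to 10.41 and 10.53 to 10.98, with 3 of 6 called higher, and that of 3 erythroid markers 11.51 to 12.995 and 12.31 to 14.35, with 2 of 3 called higher. Their part in the changes was not tested.

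The transcript of chr6:31007184-31007725_R was again higher in O4+ cells, now on another probe of the strand, which went from 1.56, 2.01 and 3.14 to 3.98, 4.45 and 4.99, at least 1.27-fold (adjusted p = 0.00198, limma), with 3 of 3 probes called. The probe of chr4:124127144-124334840_R rose from 7.86, 8.03 and 9.15 to 9.40, 9.55 and 10.09, 2.85-fold and by 1.38 ± 0.21 (adjusted p = 0.00349, limma). All 5 probes of that strand rose, and none of the 5 on the other strand. The region lies 2882 bases from Pou3f1, a POU domain transcription factor. The probe of chr6:53808521-53817132_F, near Cpvl and the Toll-like receptor co-receptor gene Tril, rose at least 1.39-fold from 1.85, 2.16 and 3.34 to 4.13, 4.35 and 5.39 (adjusted p = 0.00237, limma). Among the falls, that of chr18:6144775-6202232_F, 312 bases from the kinesin heavy chain gene Kif5b on the other strand, went from 6.16, 6.90 and 7.09 to 4.04, 5.23 and 5.38, a 3.16-fold drop (difference -1.80 ± 0.25; adjusted p = 0.00263, limma). Kif5b fell by 2.60 on the log2 scale. The probes of chr17:34003823-34011015_F and chr13:29106280-29120376_F fell 1.96-fold and 1.94-fold, with 2 of 3 probes called in each, and the groups of all 10 regions with the largest changes were apart by the rule that chose them.

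In CD11B+ cells at P10, 78 probes (0.482%) were higher after IL1B, against 1.09% of all probes, and 144 (0.89%) were lower, against 1.08%. Higher calls made up 35.1% of the calls, and 47.7% with the matrix of processed values. These counts moved with single arrays. Without replicate 6 of the PBS group, the array with the raised neutrophil and monocyte markers, 505 probes were called, 184 higher and 321 lower. Without PBS replicates 1, 2, 3 or 4 the count was 94, 64, 72 or 142, and without IL1B replicates 2, 3, 5 or 6 it was 135, 125, 91 or 130. With the slide as a block 1 probe was called, with the scan day 133, and on the slide that holds 2 PBS and 5 IL1B arrays of the 12 that made the calls, all 222 called probes had the same sign. The mean log2 signal of the neutrophil and monocyte markers was 10.36 to 12.94 after PBS and 11.47 to 12.50 after IL1B, and 0 of 7 were called by limma. That of the 11 oligodendrocyte lineage markers was 11.34 to 11.88 after PBS and 10.77 to 11.15 after IL1B. Of the 11, 2 were called lower and 0 higher. The part of these cells in the changes was not tested.

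The largest rise among the named regions in CD11B+ cells at P10 was that of chr8:96983590-96994419_F, near Nlrc5, a transactivator of MHC class I genes. Its probe went from 2.87, 3.55 and 4.40 to 4.73, 5.05 and 5.61, 2.81-fold and by 1.44 ± 0.25 (adjusted p = 0.0158, limma), and 3 of 3 probes rose. The probe of chr6:31078802-31079644_R, with no gene symbol probe within 50 kb, rose 1.97-fold from 9.03, 9.27 and 9.75 to 10.01, 10.25 and 10.93 (1.04 ± 0.17; adjusted p = 0.0147, limma), with 3 of 3 probes called. The probe of chr8:48480224-48480698_R fell 2.57-fold from 8.12, 8.97 and 9.27 to 7.23, 7.61 and 7.97 (difference -1.21 ± 0.19; adjusted p = 0.0140, limma), again with 3 of 3 called. All 10 regions named in this comparison kept their direction and lost their calls with the slide as a block, with log2 differences of 0.41 to 1.22 for the rises and -1.12 to -0.13 for the falls. Of the P5 rises in CD11B+ cells 32 were called higher again at P10, 6.99% of the P5 list and 41.0% of the P10 list, and of the falls 30 were called lower again, 7.87% and 20.8%. Called the opposite way at P10 were 3 of these P5 rises and 2 of the P5 falls. Between the cell types at P10, 3 rises and 4 falls were shared.

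With age, from P5 to P10 in PBS pups, O4+ cells had 1203 probes higher (7.43%), against 7.86% of all probes, and 815 lower (5.04%), against 8.98%. The rises lie in 704 regions and 582 loci and the falls in 474 regions and 379 loci. With a random slide effect, or with scan day in its place, 1299 probes were called. The microglial markers also changed in these arrays, with 12 of 15 called lower at P10 and 1 higher, and 3 of 3 erythroid (12.44 to 13.64 at P5 and 11.51 to 12.995 at P10) and 3 of 6 endothelial markers (10.50 to 11.46 and 9.95 to 10.58) were called lower. Their part in the falls was not tested. The largest rise among the named regions was that of chr5:53751894-53763013_R, with both probes of the strand called and no gene symbol probe within 50 kb. Its log2 signal was 1.502, 1.76 and 2.76 at P5 and 6.03, 6.77 and 7.01 at P10, at least 8.48-fold higher (adjusted p = 4.92e-08, limma). At P10, the same probe was lower after IL1B, by -1.32 ± 0.25 (adjusted p = 0.00880, limma), a comparison that shares the P10 PBS arrays. The probe of chr18:55149963-55239068_F went from 1.64, 1.69 and 2.18 to 5.66, 6.01 and 6.44, at least 5.46-fold higher (adjusted p = 2.95e-09, limma), with 3 of 3 probes called. It is also among the transcripts that were higher in O4+ than in CD11B+ cells at P10, at least 12-fold.

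Among the falls with age in O4+ cells, the probe of chr17:71242333-71273533_F, the one holding AATAAA, went from 8.31, 8.71 and 8.82 to 4.86, 5.11 and 5.95, a 12.1-fold drop (difference -3.39 ± 0.17; adjusted p = 6.41e-08, limma), while the other 4 probes of the strand were not called. The probe of chr8:67552315-67561235_R fell at least 5.30-fold, from 6.23, 6.52 and 6.74 to 1.63, 3.24 and 3.95 (adjusted p = 2.22e-05, limma), and the region contains a probe of Apela, a small secreted ligand of the apelin receptor, which differed by -3.61. On the strand of chr3:88009045-88036270_R, a probe rose 7.35-fold with age (2.82 ± 0.17; adjusted p = 2.51e-07, limma) while 5 of 10 probes on the opposite strand fell. Such opposition of strands was seen in 27 of the 551 regions probed on both strands that had a call in this comparison. Beside C130071C03Rik, a long non-coding RNA, the probe of chr13:83867711-83878140_R fell at least 1.24-fold (adjusted p = 2.28e-06, limma), with 8 of 10 probes on the opposite strand falling too.

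In CD11B+ cells, 783 probes (4.84%) were higher at P10, against 4.66% of all probes, and 345 (2.13%) were lower, against 3.62%. With slide as a random effect 735 were called, and with scan day 467. Without PBS replicate 5 at P5, 1278 were called, 772 higher and 506 lower. The largest rise among the named regions lay next to Sall1, the transcription factor that maintains microglial identity. The probe of chr8:91471819-91551119_R, a region that ends 188 bases from a Sall1 probe on the same strand, rose from 4.30, 5.21 and 5.66 to 7.40, 7.88 and 8.02, 6.36-fold and by 2.61 ± 0.20 (adjusted p = 1.17e-05, limma), and Sall1 rose by 0.73. On the other side of that Sall1 probe, the probe of chr8:91569369-91594119_R rose at least 3.01-fold (adjusted p = 3.70e-05, limma), with 5 of 10 probes of its strand and 9 of 10 of the opposite strand called. Near Ugt8a, the probe of chr3:125556184-125556476_R rose 4.19-fold (2.19 ± 0.22; adjusted p = 4.66e-05, limma), with 1 of 6 arrays well above background at P5. The oligodendrocyte lineage markers also rose in these arrays: their mean log2 signal was 10.03 to 10.64 at P5 and 11.34 to 11.88 at P10, with 8 of 11 called higher, and their part in that rise was not tested.

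In the CD11B+ arrays 5 of 6 endothelial markers were called lower at P10, with a mean log2 signal of 9.61 to 10.20 at P5 and 9.19 to 9.48 at P10, and their part in the falls was not tested. The falls with age in CD11B+ cells included chr4:86267450-86277650_F, near Plin2, which coats lipid droplets. Its probe fell from 6.09, 6.22 and 6.46 to 3.67, 4.27 and 4.98, 3.88-fold (difference -1.87 ± 0.20; adjusted p = 8.10e-05, limma), with 4 of 5 probes called. The probe of chr3:36280098-36347798_R, 296 bases from Anxa5 (annexin A5, which binds phosphatidylserine) on the same strand, fell 3.42-fold from 6.62, 6.87 and 7.11 to 4.75, 5.10 and 5.34 (difference -1.78 ± 0.11; adjusted p = 4.33e-06, limma). Anxa5 differed by -1.29. A probe of chr7:66874527-67012170_R fell 2.74-fold, and the region contains Ipw, an imprinted non-coding RNA of the Prader-Willi region, which differed by -1.68. The age effects of the cell types share no arrays. Between them 96 rises were shared, 7.98% of the O4+ list and 12.3% of the CD11B+ list, and 57 falls, 6.99% and 16.5%. Of the O4+ rises 27 fell in CD11B+ cells, and of the O4+ falls 72 rose.

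Whether the response to IL1B itself differed was tested by interaction terms, called at an adjusted p under 0.05 by limma with no threshold on the ratio. Between P10 and P5 in O4+ cells, 595 intergenic probes (3.68%) had a positive difference, against 7.84% of all probes, and 599 (3.70%) a negative one, against 5.31%. In CD11B+ cells, 372 (2.30%) were positive, against 10.5% of all probes, and 690 (4.26%) negative, against 6.29%. Between O4+ and CD11B+ cells at P5, 305 (1.88%) were positive, against 6.91%, and 351 (2.17%) negative, against 3.8%. With the slide as a block these 3 totals were 532, 274 and 212. The probe of chr13:15947521-15999246_F, chosen for its large response in CD11B+ cells at P5 on these same arrays, had differences of -6.73 ± 0.34 for O4+ minus CD11B+ cells at P5 and -7.45 ± 0.28 for P10 minus P5 in CD11B+ cells, given as a description, since that choice favours a difference. This probe was well above background on no CD11B+ P5 PBS array, so its level there is only bounded and these sizes are not exact.

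For IL1B and for age most regions with a call had it on 1 strand, and between cell types calls on 1 strand and on both were about as frequent. A region with a strand whose own probes were called both ways is counted neither as the same nor as opposite. For IL1B in CD11B+ cells at P5, 255 of the 1067 regions probed on both strands had a call, 228 on 1 strand, 23 in the same direction on both and 4 in opposite directions. In O4+ cells at P5 the counts were 169, 156, 12 and 1, and at P10 173, 158, 10 and 4, and in CD11B+ cells at P10 85, 79, 6 and 0. With age in O4+ cells 551 regions had a call, 92 of them on both strands the same way, and in CD11B+ cells 318 and 43. Between cell types 887 regions had a call at P5, 413 on 1 strand, with 288 the same way on both strands and 96 in opposite directions, and 832, 415, 249 and 83 at P10. Among the 98 mirrored pairs, 60 had a call between cell types at P5, 46 on 1 strand, 12 the same way and 2 opposite, and at P10 43, 29, 10 and 4. For IL1B, 9 pairs had a call in CD11B+ cells at P5 and 5 in O4+ cells, all on 1 strand.

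**Figure D4:**
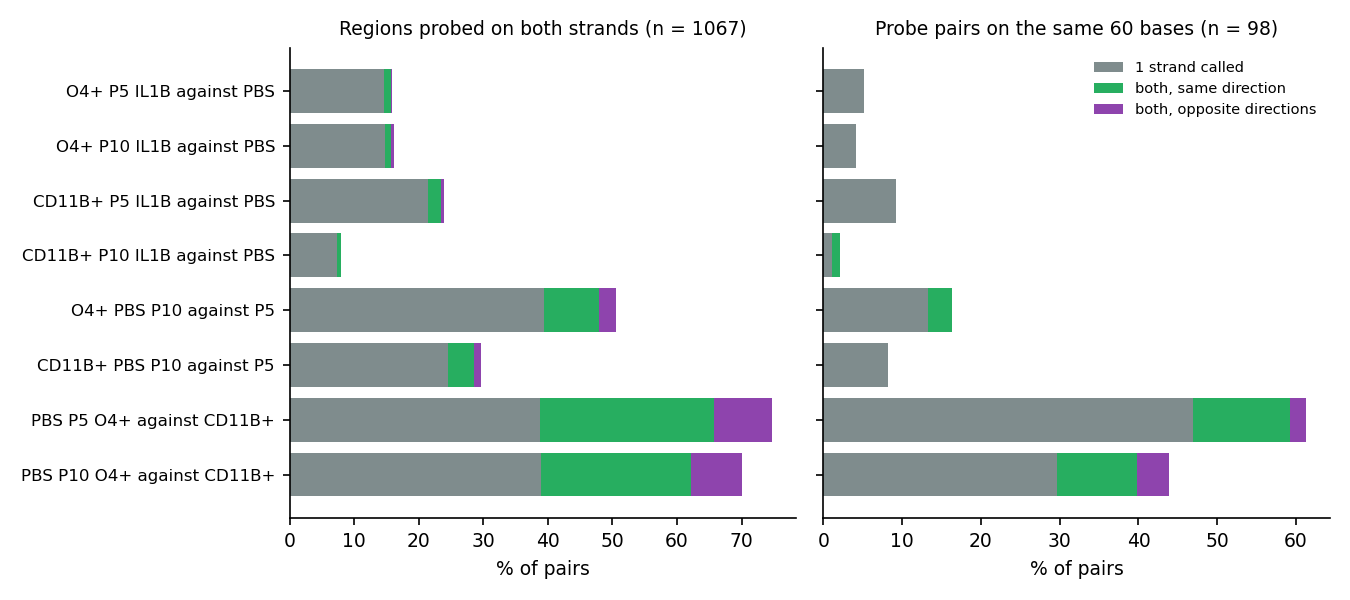
Percent (horizontal axis) of the 1067 regions probed on both strands (left) and of the 98 probe pairs on the same 60 bases (right) with a call on 1 strand, on both in the same direction or on both in opposite directions, in the 8 comparisons. The calls on 1 strand make up most of each bar for IL1B, while between cell types at P5 both strands were called alike in 288 regions and 12 mirrored pairs.

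Called intergenic probes had called neighbours more often than the intergenic probes at large. Of the 366 probes that rose with IL1B in CD11B+ cells at P5 and had a gene symbol probe within 50 kb, 131 (35.8%) had as the nearest such probe one that rose too, against 5.37% among all 12708 probes with such a neighbour. In O4+ cells at P5 it was 64 of 219 (29.2%) against 4.95%, and for the falls 20 of 144 (13.9%) against 2.21%. For the falls in CD11B+ cells at P5 it was 69 of 299 (23.1%) against 8.32%. At P10 the rises gave 27 of 157 (17.2%) against 3.34% in O4+ cells and 6 of 59 (10.2%) against 0.614% in CD11B+ cells. With age, 279 of 1025 rises (27.2%) and 235 of 602 falls (39.0%) in O4+ cells had such a neighbour, against 8.95% and 12.7%, and in CD11B+ cells 134 of 612 (21.9%) and 62 of 275 (22.5%), against 5.79% and 4.26%. Between cell types at P5 it was 1082 of 1906 (56.8%) for probes higher in O4+ cells and 1150 of 2643 (43.5%) for those higher in CD11B+ cells, against 28.3% and 24.7%. Several probes of a region can share a neighbour, and these shares were not tested. Strand mattered unevenly. The rises of O4+ cells at P5 had a rising neighbour in 32.9% where it lay on the same strand and in 22.4% where it lay on the other, while for the rises of CD11B+ cells the shares were 34.9% and 37.4%, and for their falls 27.2% and 12.2%. Among all the intergenic probes with a neighbour on that strand, the shares were 4.54% and 5.41%, 5.03% and 5.76%, and 8.05% and 8.61%. Where the neighbour's probe lay inside the region, the shares were 45.3% in O4+ cells and 47.0% in CD11B+ cells for the rises, and 11.7% and 34.8% for the falls. Among all the intergenic probes with such a neighbour they were 3.64% and 4.80%, and 2.74% and 9.06%.

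**Figure D5:**
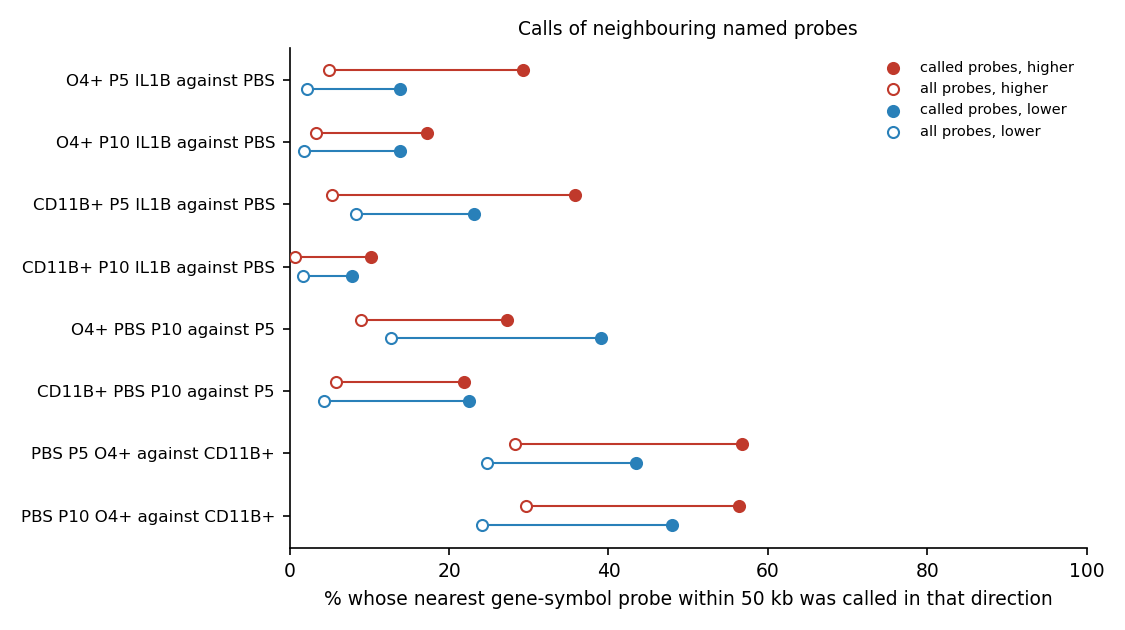
Percent of unnamed intergenic probes with a gene symbol probe within 50 kb whose nearest such probe was called in the same direction, for called probes (filled) and for all probes with such a neighbour (open), in the 8 comparisons, with rises in red and falls in blue. The called probes lie higher in each, at 35.8% against 5.37% for the rises with IL1B in CD11B+ cells at P5.

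Lists of neighbouring genes were examined by counts, 4 in all. Around 9 of 56 inflammation genes lay 119 intergenic probes in 19 regions, 46 of them detected in at least 1 group. With IL1B at P5, 15 of the 119 rose and 1 fell in CD11B+ cells and 4 rose and 0 fell in O4+ cells, and at P10 2 rose in O4+ cells and 0 in CD11B+ cells. Over all probes 4.06% rose and 5.24% fell in CD11B+ cells at P5, and 3.44% rose in O4+ cells, a share near that of the list. At P10, 2.49% of all probes rose in O4+ cells and 1.09% in CD11B+ cells. Between cell types at P10, 19 were higher in CD11B+ and 16 in O4+ cells, against 20.2% and 22.2% of all probes. The probe of chr11:117792051-117811334_R, 16176 bases from Socs3, the feedback inhibitor of cytokine signalling, gave 10.86, 11.14 and 11.29 in CD11B+ cells at P10 and 7.42, 7.81 and 8.07 in O4+ cells (difference -3.30 ± 0.11). That of chr3:90425270-90435820_F, 37988 bases from the neutrophil calprotectin gene S100a8, went the other way, with 2.95, 3.78 and 4.18 in CD11B+ cells, on no array well above background, and 4.37, 6.32 and 6.86 in O4+ cells. Around 8 of 38 oligodendrocyte lineage genes lay 43 probes in 13 regions, 24 detected, of which 17 rose and 0 fell with age in O4+ cells and 8 rose in CD11B+ cells, against 7.86% and 4.66% of all probes. Between cell types, 16 were higher in O4+ and 7 in CD11B+ cells at P5 and 15 and 4 at P10. Over all probes these shares were 19.8% and 21.8% at P5 and 22.2% and 20.2% at P10. With IL1B at P10, 5 of the 43 fell in O4+ cells and 3 in CD11B+ cells, against 1.42% and 1.08% of all probes. The CD11B+ comparison had 1 called intergenic probe with the slide as a block. In those arrays the lineage markers had a mean log2 signal of 11.34 to 11.88 after PBS and 10.77 to 11.15 after IL1B. Their part in these falls was not tested. The probe of chr15:78996470-79046809_F, 10922 bases from Sox10, a driver of myelin gene expression, gave 6.25, 6.47 and 7.08 in O4+ cells at P10 and 1.79, 2.35 and 3.05 in CD11B+ cells, on no array well above background. That of chr19:55715078-55776694_R, 40608 bases from Tcf7l2, a transcription factor of oligodendrocyte differentiation, went the other way at P5, with 3.12, 4.204 and 4.98 in CD11B+ cells, 3 of 6 arrays well above background, and 1.60, 2.32 and 3.55 in O4+ cells, 0 of 6.

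Of 25 microglia identity genes, only Sall1 had intergenic probes within 50 kb, 34 in 4 regions, 22 of them detected. Of these 18 rose and 0 fell with age in CD11B+ cells, 20 and 22 were higher in CD11B+ than in O4+ cells at P5 and P10, and none was higher in O4+ cells. Over all probes 4.66% rose with age in CD11B+ cells, and 21.8% and 20.2% were higher there than in O4+ cells. With IL1B, 3 of the 34 fell at P5 and 5 at P10 in CD11B+ cells, against 5.24% and 1.08% of all probes. That P10 comparison had 1 called intergenic probe with the slide as a block. The probe of chr8:91569369-91594119_F gave 6.11, 6.46 and 6.84 in CD11B+ cells at P10 and 1.495, 2.00 and 3.15 in O4+ cells, on no array well above background. Around 9 of 36 brain patterning transcription factor genes lay 89 probes in 17 regions, 51 detected, of which 43 were higher in O4+ cells at P5 and 4 in CD11B+ cells, and 31 fell and 7 rose with age in O4+ cells. Over all probes 19.8% and 21.8% were called so between cell types, and 8.98% fell and 7.86% rose with age, and 7 of 89 is near the overall share of rises. With IL1B at P10, 8 of the 89 rose in O4+ cells, against 2.49% of all probes. The probe of chr1:42689799-42749799_R, 6330 bases from Pou3f3, gave 5.96, 6.18 and 6.35 in O4+ cells at P5 and 1.55, 2.13 and 4.11 in CD11B+ cells, on no array well above background, and that of chr13:78370478-78371404_F, 41726 bases from Nr2f1, 6.87, 7.03 and 7.22 against 1.57, 3.06 and 4.89. Groups were apart in each of these examples other than that near Tcf7l2. Probes of the strand called alike were 1 of 3 near Socs3, 4 of 5 near S100a8 and 2 of 3 near Sox10. They were 1 of 3 near Tcf7l2, 9 of 10 near Sall1, 6 of 6 near Pou3f3 and 3 of 3 near Nr2f1. The call near Tcf7l2 was lost with the slide as a block (adjusted p = 0.057, limma).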

How the data were processed

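Total RNA of 48 samples was amplified, labelled with Cy3 and hybridised by the authors to 1-colour Agilent 8x60K arrays, 1 array per sample, read with Agilent Feature Extraction against mouse build mm9. The deposited scanner files hold spot intensity, background-subtracted by the scanner software and not normalised between arrays, with flags for detection and spot quality. A deposited matrix holds the authors' processed values, each a ratio to the median signal of its array. The study's methods describe quantile normalisation of intensities and unpaired t-tests, and give no step for this ratio. The columns of the matrix had a median of 1 before log2.

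The unnamed intergenic probes and all lists were chosen with earlier results of these data known. Signals were taken as log2, quantile normalised over the 24 arrays of a cell type (all 48 for cell type comparisons), and spots marked as non-uniform (278) or as population outliers (5097) were left out, so that a probe may rest on fewer than 6 arrays. No named region does. Tests used limma 3.58.1 (R 4.3.3) on each pair of groups of 6 arrays, adjusted over 55681 probes. A call needed an adjusted p under 0.05 and a ratio of medians above 1.5. The interaction terms took the arrays of all 4 groups concerned. On data simulated for 1 comparison with all 55681 probes, the same steps recovered 90% of 100 probes changed by a log2 of 1 and 100% of 100 changed by a log2 of 2, with 7 false calls. The changed probes were drawn from those well above background on all 6 O4+ P5 PBS arrays, as 33.7% of the intergenic probes were. Noise was independent between arrays, with no slide effect, so these rates do not cover dim probes or batches. The number of arrays limits the precision.

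Regions named in the text were, per comparison, the 5 largest rises and the 5 largest falls by ratio of medians among called probes with non-overlapping groups and with all 6 arrays of the brighter group well above background, at most 1 per locus. Up to 4 examples were taken from each list of neighbouring genes, by size of change. A neighbour is the nearest probe with a gene symbol within 50 kb. Alternatives were normexp background correction (offset 50), scaling to the 75th percentile, the deposited matrix, a filter on dim probes, no ratio threshold, the methods' t-test, slide, scan day or replicate number as a block, leaving out each array, another detection flag, detection on at least 4 of 6 arrays, and a window of 10 kb. Gene symbols are current mouse symbols, matched to the name, transcript identifier or a unique synonym in the array design. Probes without a match counted as having no symbol.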

Additional observations from a re-analysis of the deposited data

Results flagged for a closer look

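Groups of 6 arrays were examined for the named regions and for the share of intergenic probes well above background, 192 in all. In 24, all for named regions, the highest or lowest array stood apart from the nearest other by more than 0.625 of the group's range. Chance alone gives this in about 1 in 20 groups of normally distributed values. Each is given as the log2 signal of that array, with the range of the other 5. Their causes were not tested.

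In comparisons of IL1B with PBS, O4+ P5 PBS replicate 2 gave 2.87 for chr18:38478632-38482159_F (others 1.68 to 2.11), and O4+ P10 IL1B replicate 2 gave 10.09 for chr4:124127144-124334840_R (9.40 to 9.65). CD11B+ P5 PBS replicate 4 gave 3.49 for chr1:138579972-138587381_F (1.76 to 2.12). CD11B+ P10 IL1B replicate 6 gave 4.35 for chr18:5951953-5952386_F (5.76 to 6.40) and 8.97 for chr15:79764481-79809909_R (9.40 to 9.56).

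In comparisons of ages, O4+ P10 PBS replicate 1 gave 6.03 for chr5:53751894-53763013_R (6.67 to 7.01) and 6.52 for chr3:88009045-88036270_R (7.08 to 7.40). Replicate 6 of the same group gave 8.82 for chr7:129293609-129294172_R (10.27 to 10.89), and replicate 2 gave 3.60 for chr5:110502650-110522475_F (1.48 to 2.21). In CD11B+ cells, P5 PBS replicate 2 gave 4.30 for chr8:91471819-91551119_R (5.18 to 5.66), P10 PBS replicate 4 gave 4.87 for chr7:71222899-71230614_R (3.74 to 4.07), and P5 PBS replicate 1 gave 7.27 for chr1:175654606-175672031_F (4.61 to 5.52).

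In comparisons of cell types at P5, CD11B+ PBS replicate 2 gave 6.53 for chr3:125556577-125557102_R (1.57 to 2.58), replicate 4 gave 3.36 for chr5:26333765-26338143_F (3.98 to 4.24), replicate 5 gave 6.47 for chr9:122481619-122588714_F (1.46 to 2.20), and replicate 6 gave 2.43 for chr19:59498190-59531390_R (1.59 to 1.66). At P10, CD11B+ PBS replicate 5 gave 2.93 for chr7:89433125-89464275_R (1.53 to 1.66), replicate 2 gave 3.02 for chr18:55149963-55239068_F (1.72 to 1.91), and replicate 6 gave 7.91 for chr19:46419916-46421753_F (3.87 to 4.89). Among O4+ P10 PBS arrays, replicate 4 gave 3.65 for the last of these (1.64 to 2.36), replicate 6 gave 7.83 for chr9:27148989-27155714_F (7.22 to 7.45) and 7.08 for chr15:78996470-79046809_F (6.25 to 6.53), replicate 2 gave 2.76 for chr1:85117750-85129200_F (1.497 to 1.85), and replicate 1 gave 3.24 for chr6:129151512-129208737_R (4.42 to 4.95).

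The response of the named regions to IL1B differed between ages or between cell types in 41 of 58 interaction terms (limma, adjusted p under 0.05, adjusted over all probes). These regions were chosen for their large response in 1 of the groups, on the same arrays, which favours a difference from the other group, so the terms are a description and not independent evidence that the responses differ. The values that follow are differences of log2 responses. Where a change was given above as at least a fold, a group lay at background, and the size of the difference is not exact.

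In O4+ cells, the response at P10 minus that at P5 was negative for chr18:38478632-38482159_F (-3.56), chr1:64686823-64728598_R (-1.77), chr17:84470764-84486339_R (-1.62), chr1:175653557-175671940_R (-1.19), chr17:71183978-71185384_F (-1.15), chr17:34003823-34011015_F (-1.08), chr18:6144775-6202232_F (-0.96), chr16:4525147-4542122_F (-0.78) and chr13:29106280-29120376_F (-0.69). It was positive for chr6:53808521-53817132_F (3.20), chr5:110182844-110228345_R (2.53), chr3:30099759-30133959_R (1.79), chr4:124127144-124334840_R (1.63), chr17:8718223-8949898_F (1.31), chr3:30077338-30080281_R (1.26) and chr15:36800254-36809571_R (0.82).

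In CD11B+ cells, the same difference was negative for chr13:15947521-15999246_F (-7.45), chr6:40699474-40719122_F (-4.30), chr17:56687541-56694631_R (-4.26), chr18:38478632-38482159_F (-3.44), chr1:138579972-138587381_F (-2.12), chr18:5951953-5952386_F (-1.76) and chr15:79764481-79809909_R (-1.47). It was positive for chr14:70483555-70484159_F (1.87), chr5:123440192-123451767_F (1.82), chr5:137411861-137413010_F (1.15), chr15:36800254-36809571_R (1.14), chr3:36280098-36347798_R (1.13) and chr19:6268793-6276607_R (1.03).

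At P5, the O4+ response minus the CD11B+ response was negative for chr13:15947521-15999246_F (-6.73), chr17:56687541-56694631_R (-3.57), chr6:40699474-40719122_F (-3.33), chr1:138579972-138587381_F (-2.96) and chr5:110182844-110228345_R (-2.03). It was positive for chr14:70483555-70484159_F (1.84), chr6:31007184-31007725_R (1.52), chr5:123440192-123451767_F (1.49), chr1:175653557-175671940_R (1.06), chr5:137411861-137413010_F (1.03), chr15:36800254-36809571_R (0.67) and chr17:71183978-71185384_F (0.60).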

How the results depend on the processing

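No named value changed sign, but the balance of higher to lower calls turned in 5 comparisons. For O4+ IL1B at P5, 304 were higher and 191 lower, against 314 and 334 with the matrix and 569 and 810 without a threshold on the ratio. For O4+ IL1B at P10, 221 and 188 became 282 and 626 with the 75th percentile, 30 and 44 with normexp, 322 and 468 with the matrix, 132 and 144 with the slide block, 193 and 195 with the replicate block, 384 and 689 without the threshold and 204 and 262 without IL1B replicate 6. For cell type at P10, 2597 and 2773 became 2793 and 2604 with the 75th percentile. With the slide block, the interaction terms for age in CD11B+ cells and for cell type at P5 went from 372 positive and 690 negative to 154 and 120, and from 305 and 351 to 118 and 94. In the order O4+ IL1B at P5 and P10, CD11B+ IL1B at P5 and P10, age in O4+ and CD11B+ cells, and cell type at P5 and P10, the called intergenic probes numbered 88, 74, 207, 77, 462, 297, 2310 and 2413 with normexp background correction. Without a threshold on the ratio, the first 6 of these were 1379, 1073, 1531, 482, 3681 and 1981. With the slide as a block, 234 were called for O4+ IL1B at P5, 250 and 1 for CD11B+ IL1B at P5 and P10, and 1299 and 735 for age in O4+ and CD11B+ cells, and the interaction terms gave 532, 274 and 212. With scan day, CD11B+ IL1B at P10 gave 133 and age 1299 and 467. For O4+ IL1B at P10, scaling to the 75th percentile gave 908 calls and the matrix 790. Against quantile normalisation, that scaling moved the median over all probes by -0.17 for O4+ IL1B at P10, 0.13 for CD11B+ IL1B at P5, 0.20 for age in O4+ cells and -0.30 for cell type at P5, and by under 0.1 elsewhere. The methods' t-test, adjusted, with the ratio threshold, gave 426, 345, 736, 152, 1883, 1038, 5472 and 5213, and unadjusted 736, 853, 1194, 717, 2261, 1478, 5797 and 5517.

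Leaving out each array in turn gave, in the same order, 423 to 502, 293 to 511, 703 to 936, 64 to 505, 1831 to 2041, 1000 to 1278, 5408 to 6003 and 5208 to 5302 calls.

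Same-numbered arrays of the groups compared did not deviate together in every pair (correlations of -0.08 to 0.48), so the replicate number was not taken to pair samples. With it as a block, CD11B+ IL1B at P10 had 125 calls and the other counts stayed within 1.5 times. Between cell types, 4 of 6 O4+ arrays at P5 and 5 of 6 at P10 correlated best with the CD11B+ array of their own number. In the other comparisons 1 to 3 of 6 did, and in no comparison did every array. With replicate number as a block, the cell type comparisons had 5655 calls at P5 and 5339 at P10.

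With the positive-and-significant flag in place of well above background, 8332, 8189, 7709, 8141, 8003 and 7699 intergenic probes were detected in the O4+ P5 PBS, O4+ P10 PBS, CD11B+ P5 PBS, CD11B+ P5 IL1B, CD11B+ P10 PBS and CD11B+ P10 IL1B groups. By that flag, regions detected on both strands numbered 705 and 771 in O4+ cells at P5 after PBS and IL1B, 708 and 730 at P10, and 684, 732, 693 and 672 in CD11B+ cells. Within 10 kb in place of 50 kb, 7795 probes had a neighbour.

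Of 94 named values, calls were lost for 30 with normexp, 16 with the slide block, 3 with the replicate block, 2 with scan day, 1 with the matrix, 1 with the t-test and 0 with the 75th percentile. Of 1128 values with an array left out, 24 lost their call, all for CD11B+ IL1B at P10. Dim probes, with signals near background, limit the detection counts. The causes were not tested.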
